A study of Homo sapiens with 6 samples.

Results

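The 10 genes described here encode 7 transcription factors of the E2F family (E2F1, E2F2, E2F3, E2F4, E2F5, E2F7 and E2F8) and the 3 retinoblastoma, or pocket, proteins RB1, RBL1 and RBL2. They were chosen by gene name from the 35042 gene names of the count and FPKM table, with earlier results of these data known. FPKM is the number of sequenced fragments per kilobase of transcript, scaled to the sequencing depth of the library, so that levels can be compared between genes of different length. RNA-seq was performed on poly(A) RNA of THP-1 cells, a human monocytic leukaemia line, in 3 libraries treated with PMA (phorbol 12-myristate 13-acetate, an activator of protein kinase C that turns these cells into macrophage-like cells) and 3 untreated libraries. No genetic change or other agent was named for either group, and both come from this single leukaemia-derived line. For the RNA-seq libraries, the sources used here give neither the dose of PMA nor its duration. The comparison asks how RNA of the E2F and retinoblastoma genes differs once the monocytic cells have been treated with PMA.

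E2F proteins bind DNA mostly as dimers with a DP partner and control genes of DNA replication and mitosis. Pocket proteins hold E2Fs in a repressive state, and phosphorylation by cyclin-dependent kinases in G1 phase releases the activating E2Fs so that S phase genes are transcribed. In cells that leave the cycle, RBL1 or RBL2 together with E2F4 or E2F5 and the MuvB proteins form the repressive DREAM complex.

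The deposited counts summed to between 64361886 and 65698834 in the PMA libraries and to between 61547700 and 88227830 in the untreated libraries. The least difference between replicates was seen for PMA libraries 2 and 3, and both were kept. With counts divided by 4, their mean chi-square per gene was 2.81, against 14.5 to 34.3 for the other pairs. The medians were 0.889 for this pair and 2.17 to 5.14 for the others. If these 2 libraries are not independent, the PMA group holds fewer than 3 independent libraries. The tests below, which treat all libraries as independent, would then overstate their certainty. Of 12 monocyte and THP-1 markers 10 reached the level needed for testing, MS4A3 only through untreated libraries, and CD14 and MPO did not. The summed FPKM of the 12 markers was 552 to 618 in PMA libraries and 329 to 342 in untreated libraries. Single markers moved in both directions. In the test described below 6 of the 10 were higher and 2, CD33 and MS4A3, lower, against 32.7% and 32.8% of all tested genes. CSF1R had 124 FPKM on average in PMA libraries and 3.79 FPKM in untreated libraries, whereas MS4A3 had 0.298 and 32.0 FPKM. The markers of T and B cells summed to 2.11 to 3.16 FPKM in PMA libraries and 1.59 to 2.28 FPKM in untreated libraries. Epithelial and fibroblast markers summed to 1.41 to 4.22 FPKM in PMA libraries and 0.837 to 5.02 FPKM in untreated libraries. COL3A1 had 1117 counts in untreated library 3 and 0 in the others. KRT19 had 78, 0 and 0 counts in PMA libraries 1, 2 and 3 and 165, 3 and 0 in untreated libraries 1, 2 and 3. EPCAM had 13, 0 and 0 and 38, 0 and 0 in the same order.

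Genes with at least 1 FPKM in at least 3 libraries, 12947 in all, entered the quasi-likelihood test of edgeR, and a gene was called higher or lower at a Benjamini-Hochberg adjusted p under 0.05. All 10 genes had more than 1 FPKM in every library, with counts of 788 to 15833. After PMA, E2F7 and RB1 rose, E2F1, E2F2, E2F4, E2F5, E2F8 and RBL1 fell, and E2F3 and RBL2 did not pass the test. The share of all tested genes called was 32.7% higher and 32.8% lower, so that 2 of 10 higher lies below and 6 of 10 lower lies above those background shares. With only 10 genes these counts are small, and in some alternatives given below the share higher lay above the background. In either direction 8 of 10 were called, against 65.5% of all tested genes. FPKM ranges of PMA and untreated libraries were separate for 8 of the 10 genes, against 70.4% of all tested genes. The median log2 fold change of the 10 genes was -0.54, and that of all tested genes was -0.01. In bulk RNA, fewer cells with a transcript and less of the transcript per cell cannot be told apart, and the same holds for cells that differ in cell cycle phase.

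**Figure D1:**
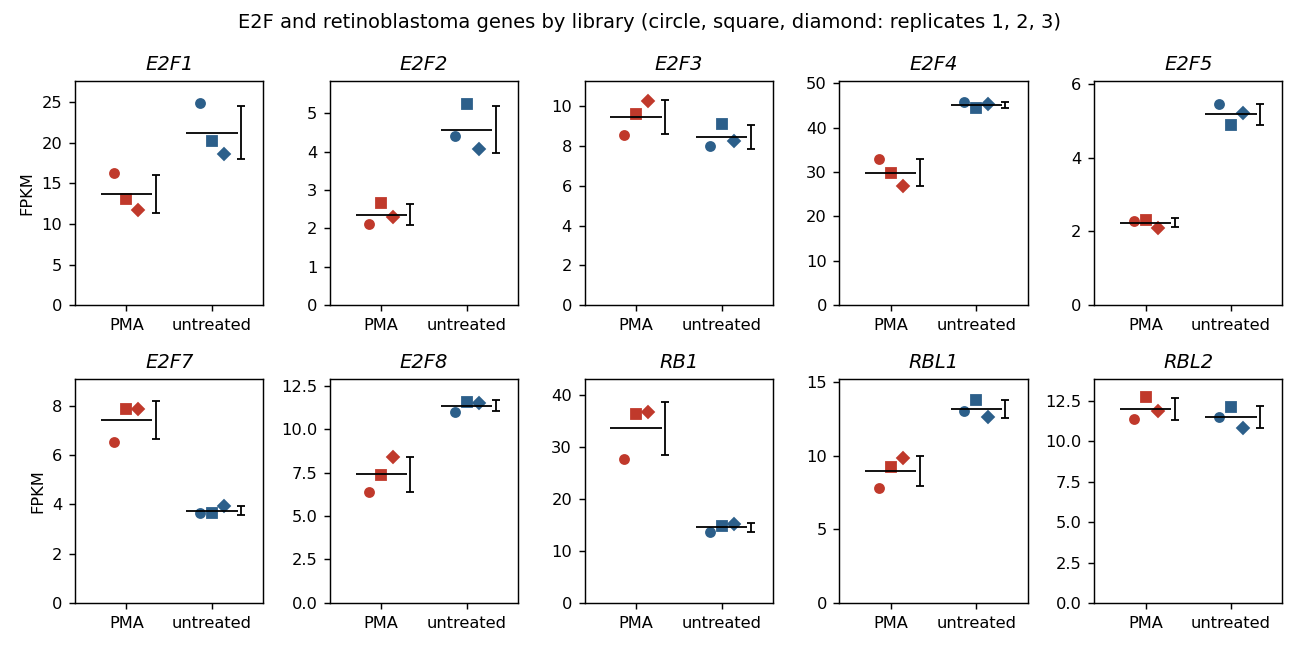
FPKM (vertical axes, from 0, each on its own scale) of the 10 E2F and retinoblastoma genes in each PMA and untreated library; points are libraries, horizontal lines group means and bars 1 SD (n = 3). RB1 and E2F7 were higher in every PMA library than in any untreated library, E2F3 and RBL2 overlapped, and the other 6 genes were lower in every PMA library.

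E2F1 (ENSG00000101412, chr20:33675477-33686385 of hg38, minus strand), the founding activator of S phase genes, had 16.3, 13.0 and 11.7 FPKM in PMA libraries 1, 2 and 3, against 24.8, 20.2 and 18.6 FPKM in untreated libraries 1, 2 and 3. Replicate 1 was the highest of both groups, and the groups did not overlap. E2F1 fell by 0.60 on the log2 scale (SE 0.15, adjusted p = 0.00797, edgeR). It is the most GC-rich of the 10 genes, with 61.6% G and C in its transcripts against a median of 49.1% over tested genes. The trend of counts with GC content at that value was 0.13, -0.11 and -0.09 (log2) in PMA libraries 1, 2 and 3 and 0.13, 0.01 and -0.03 in untreated libraries 1, 2 and 3, and with this trend removed the log2 fold change of E2F1 was -0.55 (adjusted p = 0.0011).

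E2F2 (ENSG00000007968, chr1:23506438-23531233, minus strand), the activator with the lowest level in both groups, had 2.12, 2.67 and 2.30 FPKM in PMA libraries and 4.41, 5.25 and 4.07 FPKM in untreated libraries. Every PMA library lay below every untreated one, with a log2 fold change of -0.92 (SE 0.13, adjusted p = 0.000464, edgeR). E2F3 (ENSG00000112242, chr6:20401879-20493714, plus strand), which encodes the activator E2F3a and, from an internal start, the repressive form E2F3b, behaved differently. Its FPKM was 8.55, 9.57 and 10.2 in PMA libraries and 7.97, 9.10 and 8.25 in untreated libraries. These ranges overlapped, and the log2 fold change of 0.20 (SE 0.10, 95% interval -0.02 to 0.42) gave an adjusted p of 0.101 in edgeR. With replicate numbers as a block it was 0.19 with an adjusted p of 0.034, and without PMA replicate 1 it was 0.33 with an adjusted p of 0.00834. The table gives gene-level values, so the forms of E2F3 were not separated. Its processed copy E2F3P1 on chromosome 17 was assigned 60, 69 and 80 counts in PMA libraries and 19, 26 and 23 in untreated libraries, and the division of reads between the copies is uncertain.

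Several genes of E2Fs and pocket proteins are known as E2F targets themselves, and their promoters are shown for this reason. RefSeq promoter windows (GRCh38.p14) matched 8 of the 10 genes by symbol. The 250 bases upstream of each start were searched on both strands for TTTCCCGC, TTTGGCGC, TTTCGCGC and TTTGCCGC, and 2.79% of the 35116 windows of the table held at least 1 of them. E2F1, E2F2, E2F3 and RBL1 held a match, at the first listed start in the case of E2F3, whose other listed start had none. E2F4 and E2F7 had none, and the start listed for RB1 lies inside the gene and is not shown. RBL2 had none either, but its listed starts lie 494 and 1642 bases inside the gene. The bases before the gene were therefore not searched for RBL2. The 130 bases before the start are given 5′ to 3′ on the strand of the gene, with the matches in capitals (those on the opposite strand read as their reverse complement). The windows are chr20:33686386-33686515 on the minus strand for E2F1, chr1:23531234-23531363 on the minus strand for E2F2, chr6:20401749-20401878 on the plus strand for E2F3, chr20:37095998-37096127 on the minus strand for RBL1 and chr12:77065570-77065699 on the minus strand for E2F7, the last as the E2F gene that rose.
E2F1: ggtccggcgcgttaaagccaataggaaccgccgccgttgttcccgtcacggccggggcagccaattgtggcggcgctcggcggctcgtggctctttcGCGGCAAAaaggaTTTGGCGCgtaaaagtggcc
E2F2: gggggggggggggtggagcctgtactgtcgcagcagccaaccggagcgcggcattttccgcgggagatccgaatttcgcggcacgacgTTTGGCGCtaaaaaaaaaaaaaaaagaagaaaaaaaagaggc
E2F3: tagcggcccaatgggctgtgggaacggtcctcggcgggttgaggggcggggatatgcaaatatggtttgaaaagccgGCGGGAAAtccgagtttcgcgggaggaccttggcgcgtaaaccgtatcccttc
RBL1: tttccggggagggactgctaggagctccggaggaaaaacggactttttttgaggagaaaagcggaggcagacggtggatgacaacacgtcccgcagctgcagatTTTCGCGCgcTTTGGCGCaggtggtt
E2F7: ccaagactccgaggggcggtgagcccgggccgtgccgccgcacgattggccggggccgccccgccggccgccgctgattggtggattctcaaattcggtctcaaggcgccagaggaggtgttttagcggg
E2F1 and RBL1 held 2 matches each, which did not overlap. A match, or the lack of one, describes only these letters in the 250 bases upstream. Bases after the start and other forms of the motif were not searched, and binding was not analysed here. Of the 4 genes with a match, E2F1, E2F2 and RBL1 fell and E2F3 did not pass the test. Of those without, E2F4 fell and E2F7 rose, with RBL2 left aside, so that both kinds hold genes that fell.

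E2F4 (ENSG00000205250, chr16:67192155-67198918, plus strand), the main E2F of resting cells and a partner of all 3 pocket proteins, had the highest FPKM of the 7 E2F genes in every library. It reached 33.0, 29.9 and 26.9 FPKM in PMA libraries, against 45.7, 44.4 and 45.3 FPKM in untreated libraries. The groups did not overlap, and E2F4 fell by 0.56 on the log2 scale (SE 0.09, adjusted p = 0.000844, edgeR). E2F5 (ENSG00000133740, chr8:85177154-85214518, plus strand), its close relative that binds mainly RBL2, showed the lowest fold change of the 10 genes. Its level was 2.28, 2.32 and 2.09 FPKM in PMA libraries and 5.44, 4.88 and 5.20 FPKM in untreated libraries, a log2 fold change of -1.18 (SE 0.10, adjusted p = 2.66e-05, edgeR). As E2F5 fell further than E2F4, the ratio of their FPKM was 14.4, 12.9 and 12.9 in PMA libraries and 8.40, 9.10 and 8.72 in untreated libraries. E2F5 shares 997 exon bases with RBIS on the opposite strand, whose counts were 119% to 133% of those of E2F5 in PMA libraries and 95.1% to 109% in untreated libraries. RBIS also fell (log2 fold change -0.85, SE 0.10, adjusted p = 0.000134), and since nothing says that the strand was used in counting, reads of the shared exons cannot be assigned with certainty.

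The atypical E2Fs, E2F7 and E2F8, bind DNA without a DP partner or a pocket protein and repress E2F targets, E2F1 among them. They moved in opposite directions. E2F7 (ENSG00000165891, chr12:77021248-77065569, minus strand) had 6.54, 7.87 and 7.87 FPKM in PMA libraries, against 3.66, 3.64 and 3.94 FPKM in untreated libraries. It was higher in 3 of 3 PMA libraries, with a log2 fold change of 1.02 (SE 0.11, adjusted p = 7.62e-05, edgeR). E2F8 (ENSG00000129173, chr11:19224063-19241620, minus strand) had 6.41, 7.38 and 8.41 FPKM in PMA libraries, against 11.0, 11.6 and 11.5 FPKM in untreated libraries. It fell by 0.58 on the log2 scale (SE 0.11, adjusted p = 0.00205, edgeR), again without overlap of the groups. Consequently the FPKM of E2F7 was 1.02, 1.07 and 0.937 times that of E2F8 in PMA libraries, but 0.333, 0.315 and 0.342 times in untreated libraries.

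**Figure D2:**
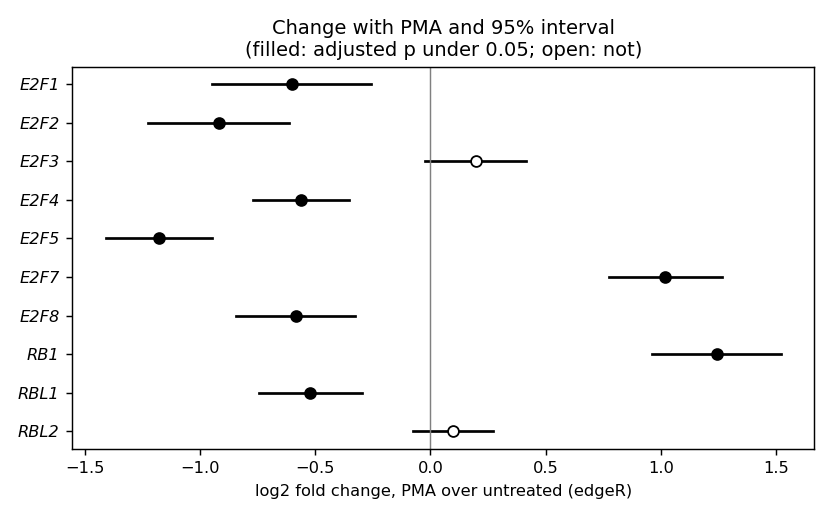
Log2 fold change of PMA over untreated libraries (horizontal axis, edgeR) for each of the 10 genes, with its 95% interval (n = 3 per group; filled points, adjusted p under 0.05). The values run from -1.18 for E2F5 to 1.24 for RB1, and the intervals of E2F3 and RBL2 include 0.

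RB1 (ENSG00000139687, chr13:48303744-48599436, plus strand), the retinoblastoma protein that restrains the activating E2Fs, rose most of the 10 genes. Its level was 27.7, 36.2 and 36.7 FPKM in PMA libraries and 13.6, 14.8 and 15.1 FPKM in untreated libraries, and the lowest PMA library, replicate 1, was still above the highest untreated one. The log2 fold change was 1.24 (SE 0.12, adjusted p = 5.39e-05, edgeR). RB1 is GC-poor (39.2%), the trend with GC content at that value was -0.12, 0.11 and 0.09 (log2) in PMA libraries 1, 2 and 3 and -0.11, 0.02 and 0.04 in untreated libraries 1, 2 and 3, and with the trend removed its log2 fold change was 1.19 (adjusted p = 2.97e-06). RCBTB2 and LPAR6 lie inside RB1 on the opposite strand without sharing exon bases. Both rose, RCBTB2 with a log2 fold change of 3.50 (SE 0.08) and LPAR6 with one of 5.28 (SE 0.18), against RB1 at 1.24. Counts of RCBTB2 were 36.0% to 50.2% of those of RB1 in PMA libraries and 8.29% to 8.79% in untreated libraries. Counts of LPAR6 were 6.24% to 7.98% of those of RB1 in PMA libraries and 0.359% to 0.501% in untreated libraries. Their part in the counts of RB1 was not tested.

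RBL1 (ENSG00000080839, chr20:36996349-37095997, minus strand) encodes p107, the pocket protein whose gene is itself an E2F target and which prevails in cycling cells. It had 7.82, 9.25 and 9.83 FPKM in PMA libraries and 13.1, 13.8 and 12.7 FPKM in untreated libraries. The groups did not overlap, and RBL1 fell by 0.52 on the log2 scale (SE 0.10, adjusted p = 0.00181, edgeR). RBL2 (ENSG00000103479, chr16:53433977-53491628, plus strand) encodes p130, the pocket protein of the DREAM complex in resting cells. Its values of 11.4, 12.7 and 11.9 FPKM in PMA libraries overlapped with those of 11.5, 12.2 and 10.8 FPKM in untreated libraries. The log2 fold change was 0.10 (SE 0.07, 95% interval -0.08 to 0.27, adjusted p = 0.279, edgeR). Without PMA replicate 1 RBL2 passed the test with a log2 fold change of 0.20 and an adjusted p of 0.0406, and with DESeq2 its log2 fold change was -0.03 without passing. RBL2 shares 609 exon bases with AKTIP on the opposite strand, whose counts were 3.11% to 3.94% of those of RBL2 in PMA libraries and 9.33% to 11.3% in untreated libraries. AKTIP fell (log2 fold change -1.49, SE 0.20, adjusted p = 0.000282, edgeR). As for E2F5 and RBIS, reads of the shared exons cannot be assigned with certainty, and their part in the counts of RBL2 was not tested.

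The share of each pocket protein gene in their summed FPKM was set beside its level. RB1 made up 61.4 ± 2.07% in PMA libraries and 37.0 ± 1.93% in untreated libraries (SD, n = 3 each). RBL1 made up 16.5 ± 0.509% in PMA libraries and 33.6 ± 0.751% in untreated libraries, and RBL2 made up 22.2 ± 2.02% in PMA libraries and 29.3 ± 1.18% in untreated libraries. The ratio of RB1 to RBL1 was 3.54, 3.92 and 3.73 in PMA libraries, whereas both were at nearly the same level in untreated libraries, with ratios of 1.04, 1.07 and 1.20. The summed FPKM of the 3 genes was 54.5 ± 6.61 in PMA libraries and 39.2 ± 1.41 in untreated libraries. Meanwhile, the summed FPKM of the 7 E2F genes was 72.4 ± 2.86 in PMA libraries and 99.7 ± 3.09 in untreated libraries. Such sums depend on how the libraries were scaled, whereas shares within a library do not, and shares of RNA are not shares of protein.

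Within the E2F genes the share of the activators E2F1, E2F2 and E2F3 was 35.1 ± 0.604% in PMA libraries and 34.3 ± 2.18% in untreated libraries, a difference smaller than the SD between untreated libraries. Among them E2F3 held 13.1 ± 1.68% of all E2F FPKM in PMA libraries and 8.48 ± 0.722% in untreated libraries. E2F4 and E2F5 together held 44.3 ± 2.62% in PMA libraries and 50.5 ± 1.41% in untreated libraries. The atypical E2Fs held 20.6 ± 3.13% in PMA libraries and 15.2 ± 0.891% in untreated libraries, and E2F7 alone held 10.3 ± 1.40% in PMA libraries and 3.77 ± 0.269% in untreated libraries. With 3 libraries a group, an exact permutation test of a single share cannot give a p below 0.1, and no test is given for them.

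**Figure D3:**
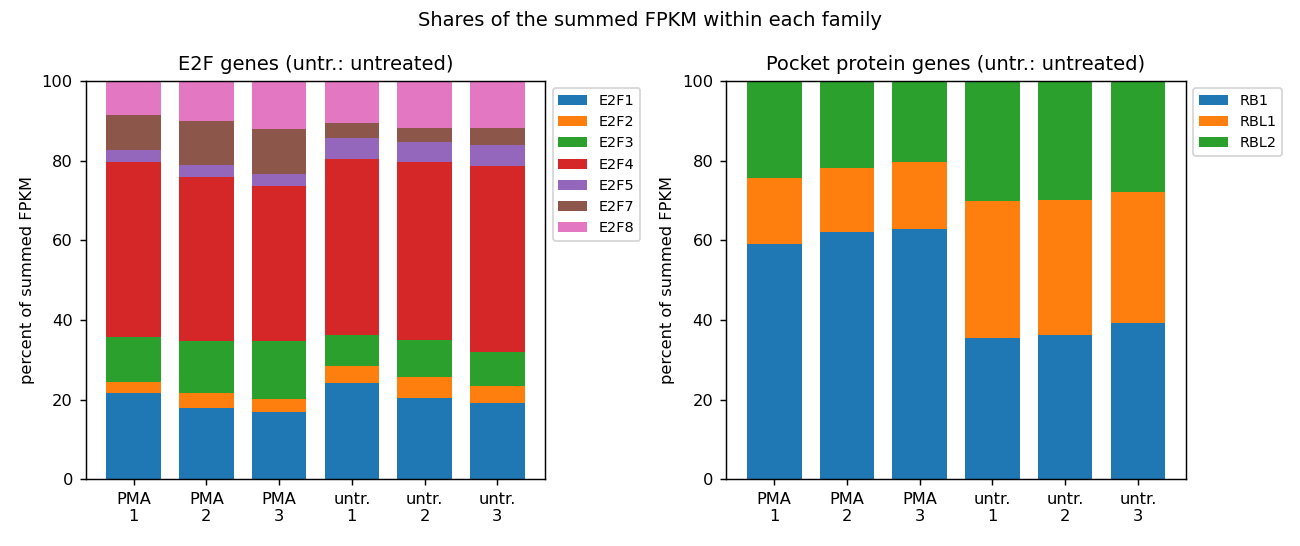
Share of each gene in the summed FPKM (vertical axis, percent) of the 7 E2F genes and of the 3 pocket protein genes, 1 bar per library. RB1 holds 61.4% of the pocket protein FPKM on average in the PMA libraries and 37.0% in the untreated libraries, and E2F7 holds 10.3% of the E2F FPKM in the PMA libraries and 3.77% in the untreated libraries.

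Dimerization partners were examined next. TFDP1, which encodes the main DP partner of E2F1 to E2F5, had 52.0 ± 3.84 FPKM in PMA libraries and 90.1 ± 12.3 FPKM in untreated libraries (SD, n = 3 each). It fell by 0.76 on the log2 scale (SE 0.11, adjusted p = 0.000409, edgeR) and was more abundant than any E2F gene in both groups. TFDP2, the other DP gene, had 1.84 ± 0.168 FPKM in PMA libraries and 1.95 ± 0.0497 FPKM in untreated libraries, with a log2 fold change of -0.05 (adjusted p = 0.688). E2F6, a repressor of the family that works without pocket proteins, had 7.33 ± 0.450 FPKM in PMA libraries and 5.82 ± 0.328 FPKM in untreated libraries, a rise of 0.37 on the log2 scale (SE 0.09, adjusted p = 0.00797). That call was lost with DESeq2, where the log2 fold change was 0.24 with an adjusted p of 0.0902.

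The cyclin D and cyclin E kinases phosphorylate the pocket proteins. Apart from CCND2, 8 genes were tested, which encode these kinases, their cyclins and the phosphatase CDC25A. Of these 3 rose, 3 fell and 2 did not pass the test, with a median log2 fold change of 0.02. Both counts are near the shares of all tested genes (32.7% higher and 32.8% lower). CCNE1, CCNE2 and CDC25A are counted again among the G1/S genes below. CCND1 (cyclin D1) rose by 1.66 on the log2 scale (SE 0.07, adjusted p = 8.01e-07, edgeR), with 24.2 ± 0.664 FPKM in PMA libraries and 7.83 ± 0.116 FPKM in untreated libraries. The partner kinases CDK6 and CDK4 moved apart. CDK6 had 113 ± 22.5 FPKM in PMA libraries and 37.4 ± 3.95 FPKM in untreated libraries (log2 fold change 1.62, SE 0.16), whereas CDK4 had 34.4 ± 5.33 FPKM in PMA libraries and 74.8 ± 2.25 FPKM in untreated libraries (log2 fold change -1.08, SE 0.11). CCNE1 (cyclin E1) fell by 0.79 (SE 0.10) and CCNE2 (cyclin E2) rose by 0.43 (SE 0.12, adjusted p = 0.0131), a call that DESeq2 did not make (0.30, adjusted p = 0.0643). CDC25A, the phosphatase that activates CDK2, fell by 1.21 (SE 0.07), and CCND2 (cyclin D2), which reached the tested level only through untreated libraries, had a log2 fold change of -2.34 (SE 0.17) and is left out of these counts. CCND3 and CDK2 did not pass the test, with 0.15 and -0.11. With the replicate numbers as a block CCND3 passed at 0.15 with an adjusted p of 0.0431.

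The CDK inhibitors hold these kinases back. Of 7 genes 4 reached the tested level. CDKN1A (p21) had 85.6 ± 2.67 FPKM in PMA libraries and 4.03 ± 0.507 FPKM in untreated libraries. CDKN2C (p18) fell by 0.34 on the log2 scale (SE 0.07, adjusted p = 0.00243, edgeR), and CDKN1B (p27) and CDKN2D (p19) had log2 fold changes of 0.02 and -0.03 without passing the test. CDKN2A and CDKN2B, inhibitors of CDK4 and CDK6, and CDKN1C stayed under the tested level, at no more than 0.268 FPKM in any library.

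The DREAM and MuvB proteins and the corepressors that pocket proteins recruit were examined as well. Of 8 DREAM, MuvB and related genes 1 rose, 4 fell and 3 did not pass the test (median log2 fold change -0.28), against 32.7% higher and 32.8% lower among all tested genes. DYRK1A, the kinase that promotes assembly of DREAM, rose by 0.81 (SE 0.11, adjusted p = 0.000354, edgeR). MYBL2, the B-Myb factor that replaces p130 and E2F4 on MuvB in cycling cells, had 61.2 ± 0.659 FPKM in PMA libraries and 184 ± 10.7 FPKM in untreated libraries (log2 fold change -1.56, SE 0.08). FOXM1 (-0.54, SE 0.07), LIN9 (-0.40, SE 0.14, adjusted p = 0.0345) and RBBP4 (-0.64, SE 0.07) were the others that fell. With the replicate numbers as a block 2 of the 8 genes rose, against 36% of all tested genes. Of 10 corepressor genes 3 rose, close to the share of all tested genes, and 7 fell, above it (median -0.45). The histone deacetylases HDAC2 (-0.95, SE 0.10) and HDAC1 (-0.67, SE 0.12) fell, and KDM5A (0.71, SE 0.10), a histone demethylase first found through its binding to RB1, and ARID4A (0.40, SE 0.13, adjusted p = 0.0255) rose. The FPKM ranges of ARID4A overlapped, with 4.08 in PMA library 1 and 4.09 in untreated library 3. The number of corepressor genes that rose was below 3 in 13 of 22 alternatives and was 1 in 6 of them, among them DESeq2 and the fits without untreated replicate 1 or untreated replicate 2. Across the alternatives 13.9% to 37.4% of all genes tested there were higher.

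The targets gave the most uniform picture. Of 36 tested G1/S genes that E2Fs activate, 35 fell and 1, CCNE2, rose, with a median log2 fold change of -0.91, against 32.8% lower and 32.7% higher among all tested genes. MCM3, a subunit of the replicative helicase, had 59.1 ± 3.72 FPKM in PMA libraries and 228 ± 9.98 FPKM in untreated libraries (log2 fold change -1.91, SE 0.08). GINS2, of the GINS complex that works with this helicase, had 5.01 ± 0.845 FPKM in PMA libraries and 14.8 ± 0.601 FPKM in untreated libraries (log2 fold change -1.53, SE 0.13). Of 30 G2/M genes repressed through DREAM, 26 fell and none rose at the adjusted threshold in edgeR, with a median of -0.82. CDC20, which activates the anaphase-promoting complex, had 110 ± 15.0 FPKM in PMA libraries and 337 ± 39.8 FPKM in untreated libraries (log2 fold change -1.58, SE 0.12). CCNA2 (cyclin A2) had 29.7 ± 2.74 FPKM in PMA libraries and 74.6 ± 7.29 FPKM in untreated libraries (log2 fold change -1.29, SE 0.11). CENPE, CENPF, NDC80 and ASPM were the 4 that did not pass. These lists were written with earlier results of these libraries known, so their counts are descriptions of the same data and no independent evidence of direction.

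**Figure D4:**
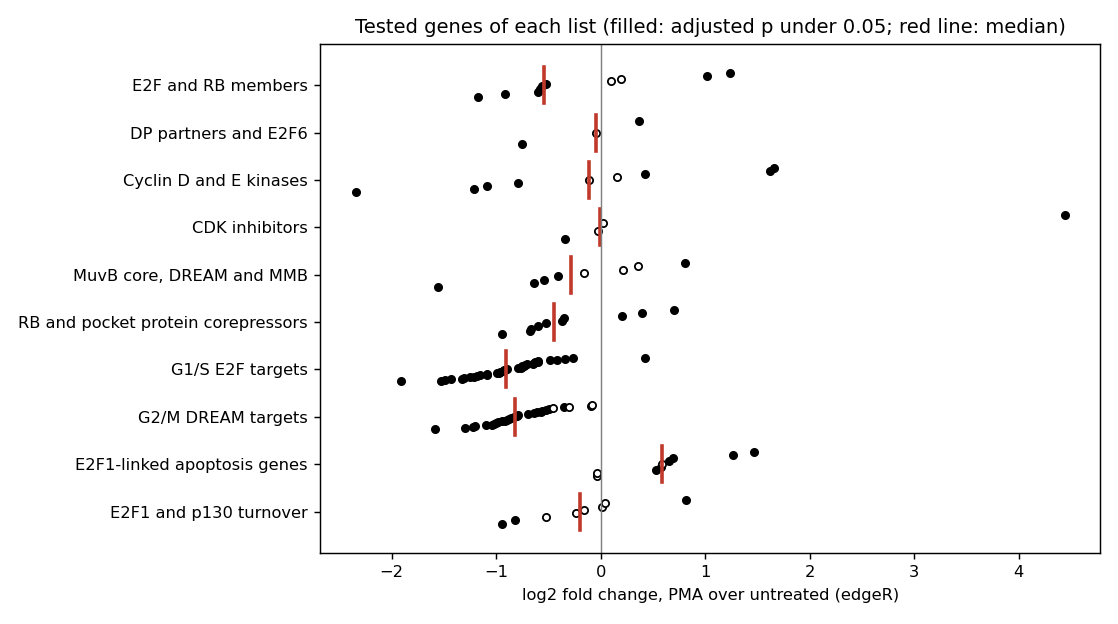
Log2 fold change of PMA over untreated libraries (horizontal axis, edgeR) for each tested gene of the 10 E2F and retinoblastoma genes and of the lists around them; filled points passed the test, and red lines are medians. The medians are -0.54 for the 10 genes, -0.91 for G1/S targets and -0.82 for G2/M targets.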

How the data were processed

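Poly(A) RNA was sequenced as paired reads. For each of 35424 features the authors deposited an estimated count, a whole number not scaled to library size, and an FPKM value. Processing notes of the submitters list hg38 and DESeq2, while aligner, counter, annotation and strand setting were not given in the sources used here. Low counts pile up at multiples of 4 (37.2% to 39.1% of counts from 3 to 22, against 25% without such steps), so a read pair may be worth several counts and counting error may be larger than the counts show. Of features with a shared name only that with most counts on average entered, leaving 35042 names, and 9241 features carried only an identifier.

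Counts were tested with edgeR 4.0.16 (R 4.3.3, TMM factors 0.984 to 1.021, treatment as the only term), with Benjamini-Hochberg adjustment over 12947 genes. The code was first run on simulated counts with independent libraries and the same dispersion for every gene. That run therefore does not cover the count steps above or likeness between libraries. The SE is the log2 fold change divided by the square root of the F statistic, and is approximate. Alternatives used DESeq2 1.42.0, limma 3.58.1, other filters, GC correction, libraries left out and the counts of PMA libraries 2 and 3 added together. Replicates are described as biologically independent. Deviations from the group means of libraries with the same replicate number correlated at 0.52, 0.17 and 0.14 across genes, and those with different numbers at -0.38 to 0.29, PMA 3 with untreated 2 (0.29) and PMA 2 with untreated 3 (0.23) above their own numbers. A block by number was fitted as an alternative, and what the number marks is not known. All 10 genes are named. Of each list the 2 largest rises and 2 largest falls among called genes are named, the DP, cyclin, kinase and inhibitor genes in full, and others were named after their values were seen. The 10 genes and the lists were chosen with earlier results of these data known. Sequences are from RefSeq. Values of some single genes of the lists are not reported here.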

Additional observations from a re-analysis of the deposited data

How the results depend on the processing

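All 8 called genes kept their direction and their call in each of the 22 alternatives in which they were tested (E2F2 and E2F5 fell under a mean of 5 FPKM in 1 of them). E2F1 ranged from -0.75 to -0.43 on the log2 scale, with its highest adjusted p of 0.0475, and RB1 from 0.97 to 1.43. With the counts of the similar PMA libraries 2 and 3 added into a single library, E2F1 was at -0.53 (adjusted p = 0.0293, edgeR). In that fit 58.7% of all tested genes were called in either direction, against 65.5% in the main test. A pseudocount of 5 FPKM in limma brought E2F2 to -0.38, E2F5 to -0.49 and E2F7 to 0.50. E2F3 (0.05 to 0.33) was called higher in 6 alternatives and RBL2 (-0.05 to 0.22) in 2. DESeq2, no filter and filterByExpr shifted the median log2 fold change of the genes of the main test by -0.13, -0.15 and -0.12. E2F6 and CCNE2 lost their calls there, while CDK2 was called lower. This left 0 of the G1/S genes higher in all 3, against 21.5%, 13.9% and 25.9% of all genes tested there. With a mean of at least 5 FPKM, 2433 genes were higher and 2457 lower, and 4 of the 8 E2F and retinoblastoma genes tested there were higher, against 34.1% of all genes tested there. Leaving out 1 library gave 2 to 4 of the 10 genes higher (4 without PMA replicate 1) and 6 lower each time. Of all genes tested in these fits 28% to 32.8% were higher and 27.2% to 33.5% lower. With the replicate block 4657 genes were higher and 4758 lower, E2F3 passed at 0.19 and CCND3 at 0.15, and no other call on the genes of these 2 families, the DP partners or the cyclins and their kinases changed.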

Other observations

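Beside its S phase targets E2F1 is known for activating genes of apoptosis. Of 9 tested genes of this kind 6 rose, none fell at the adjusted threshold in edgeR and 3 did not pass, against 32.7% higher and 32.8% lower among all tested genes, with a median log2 fold change of 0.59. BCL2L11 (BIM) had 10.3 ± 1.20 FPKM in PMA libraries and 3.80 ± 0.512 FPKM in untreated libraries (log2 fold change 1.47, SE 0.14), and PMAIP1 (NOXA) had 34.5 ± 0.945 FPKM in PMA libraries and 14.7 ± 1.01 FPKM in untreated libraries (1.26, SE 0.09). CASP8 (0.53, SE 0.09) and TP73 (0.69, SE 0.13) were among the others that rose, while E2F1 itself fell in the same libraries. The cause was not tested.

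Among 8 genes for the turnover of E2F1 and p130, USP11 rose by 0.82 on the log2 scale (SE 0.08), and the ubiquitin ligase subunits SKP2 (-0.94, SE 0.12) and CCNF (-0.82, SE 0.07) fell. In all 1 of the 8 rose and 2 fell, against 32.7% and 32.8% of all tested genes. With the replicate numbers as a block 5 of the 8 genes fell, against 36.7% of all tested genes. In profile over the 6 libraries, the genes nearest to RB1 among 12946 others were RNF217, CRYBG3 and GOLGB1, at distances of 0.0566, 0.0727 and 0.0852 between centred log2 values, and those nearest to E2F1 were ADRB1, PHF19 and SEMA3G, at 0.0962, 0.103 and 0.123.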
